A study of Mus musculus with 20 samples.

Results

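The long-chain acyl-CoA synthetases of the mouse are encoded by 5 genes, *Acsl1*, *Acsl3*, *Acsl4*, *Acsl5* and *Acsl6*, and these were chosen by name, without use of any measured value. All 5 were among the 14924 genes with RNA-Seq and POL-Seq counts and among the 9621 genes with counted 3′ ends, and 1 of the 5, *Acsl4*, was among the 1425 genes with a CRAC window. On GRCm38 *Acsl4* lies on the minus strand of chromosome X (142317993 to 142390535), and the others lie on plus strands, *Acsl1* on chromosome 8 (46471041 to 46536051), *Acsl3* on chromosome 1 (78657825 to 78707743), *Acsl5* on chromosome 19 (55253369 to 55296627) and *Acsl6* on chromosome 11 (54303798 to 54364756). The cells were NSC-34, a mouse hybrid line with motor neuron traits that descends from neuroblastoma and embryonic spinal cord. HuD cells carry an inducible vector for the tagged human HuD cDNA (gene *ELAVL4*), and the vector brings it into Trex cells, which express the tetracycline receptor. Control cells are Trex NSC-34 cells without HuD, which the series' description gives as carrying an empty vector in CRAC. The endogenous mouse *Elavl4* is present in both. For CRAC, which crosslinks a protein to RNA and reads the bound fragments, 3 HuD and 3 control libraries were made, all from cells given tetracycline at 10 µg/ml for 24 h according to the labels. Total RNA (RNA-Seq) and polysomal RNA (POL-Seq, the RNA that sediments with polysomes in a sucrose gradient) were sequenced from 2 HuD and 2 control samples each, and RNA 3′ ends from 3 and 3. HuD cells for these 3 assays received tetracycline at 2 µg/ml for 48 h, and the treatment of their controls is not given in the labels. The sources differ on the drug, dose and time used for CRAC, so whether CRAC and RNA samples were induced alike is not settled. Each arm is 1 cell line. The series' description calls the replicates biological without saying how they were separated, and p-values measure the spread between these samples.

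Acyl-CoA synthetases join a free fatty acid to coenzyme A, which commits it to membrane lipids, to storage or to oxidation. The members differ in place and in the fatty acids they prefer. ACSL4 prefers arachidonate and other polyunsaturated fatty acids, supplies them to phospholipids and is known as a determinant of ferroptosis, a cell death by lipid peroxidation. ACSL3 sits on the endoplasmic reticulum and on lipid droplets, ACSL1 serves both oxidation and lipid synthesis, ACSL5 is found on mitochondria and the endoplasmic reticulum, and ACSL6 is a brain form linked to docosahexaenoate. HuD is a neuronal RNA-binding protein that recognises U-rich and AU-rich stretches, mostly in 3′ UTRs.

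CRAC windows were listed on a single gene of the family, *Acsl4*, which had 4, all of them in its 3′ UTR on the minus strand of chromosome X. The windows are shown from the stop codon to the 3′ end because they are the only windows listed on these genes. Each line gives 30 nt of the transcript, 5′ to 3′, with the window in capitals.

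*Acsl4* window 1, chrX:142320440-142320469: uagcuguguuaAGUUUAGagcagaaauucu

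*Acsl4* window 2, chrX:142318881-142318910: uccuucaagggUGUUUUUUuuuuuuuuuuu

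*Acsl4* window 3, chrX:142318547-142318576: uugagccuaaaGAUUUUGaucuccauuuuu

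*Acsl4* window 4, chrX:142318144-142318173: agauacauuuuAAUUUUGaauguaguuaua

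The coordinates are on GRCm38, and the letters come from the GENCODE vM21 transcripts of that build. They were placed by matching the listed window to the transcript, which put every minus-strand window 2 nt downstream of its listed interval.

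The 4 windows share a run of U flanked by A or G, except the second, which opens a U run that goes on for 19 nt. Window 1 lay 219 nt after the stop codon, and windows 2, 3 and 4 followed at 1778, 2112 and 2515 nt, so that 3 of the 4 were in the last part of a 3′ UTR of 2684 nt. Window 4 ended 163 nt before the counted 3′ end of the mRNA. The 7-nt sequence of window 3 was a window in 18 protein coding genes, as was that of window 4. The sequence of window 1 was found in 5 and that of window 2, of 8 nt, in 4.

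Reads pooled over the 3 HuD libraries differed between the windows in depth and in the share that carried a deletion, the mark left where reverse transcriptase passes a crosslinked base. Window 4 held 44 reads, of which 3 had a deletion (6.82%, 95% Wilson interval 2.35 to 18.2). Window 3 held 20 reads with 3 deletions (15.0%, interval 5.24 to 36.0). The windows nearest the 3′ end thus had the most reads, and window 4 alone held 53.0% of the gene's 83. Window 2 held 8 reads with 3 deletions (37.5%, interval 13.7 to 69.4). It is listed more than once, with 7 reads at the lowest, and the highest count is used here and in the 83. Window 1 held 11 reads with 5 deletions (45.5%, interval 21.3 to 72.0). The interval of window 4 does not overlap that of window 1, while the other intervals overlap one another. Listing required at least 3 deletions, and windows 2, 3 and 4 held exactly 3. A window with few reads could thus be listed only at a high deletion share, so the shares cannot be compared across depths. These intervals cover counting error only, and pooling leaves no spread between libraries.

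**Figure D1:**
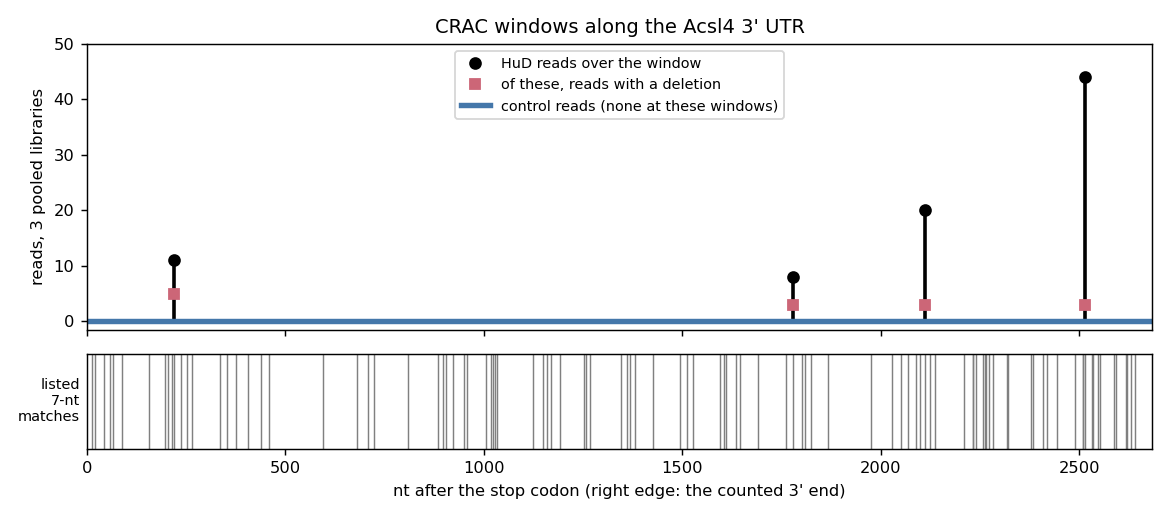
Upper panel: HuD CRAC reads pooled over 3 libraries (black circles) and the reads among them with a deletion (red squares) at each of the 4 windows of *Acsl4*, against distance in nt from the stop codon, with control reads as the blue line at 0. Lower panel: grey lines mark the 103 places where the 3′ UTR matches a 7-nt sequence listed as a window in any protein coding gene. Reads are 11, 8, 20 and 44 from left to right.

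No control read fell on any of the 4 windows. The authors penalized locations with control reads before listing windows, so this absence is in part set by the listing. The total depth of the control CRAC libraries is not known from the table. The authors' combined p-values, which are not adjusted for multiple testing, were 0.2, 0.386, 0.301 and 0.213 from window 1 to window 4, so that none of the 4 was under 0.05, against 542 of all 2598 windows in protein coding genes. After that penalty, the windows were listed because they met the authors' minimum of 6 reads, 3 deletions and a motif score. This minimum does not use the combined p-value.

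Among the 1299 protein coding genes with a window, *Acsl4* stood in the upper part of the list by measures taken over all its windows together. Its 83 reads put it at place 321, against a median of 27, and its 14 deletions at place 324, against a median of 7. It had 4 windows against a median of 1, and 107 genes had more. Divided by the level of the mRNA in control total RNA, coverage was 4.19 reads per FPKM (library-scaled counts per kb of exon), against a median of 1.54 over 1279 targets, which is place 298. Reads were summed over the windows of a gene, so a read across close windows counts more than once. The windows of *Acsl4* lie 334 nt or more apart, and the spacing in other targets was not taken into account. Taken singly, the windows of *Acsl4* held 11, 8, 20 and 44 reads, against a median of 26 over all windows in protein coding genes. Their deletions were 5, 3, 3 and 3, against a median of 5.

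**Figure D2:**
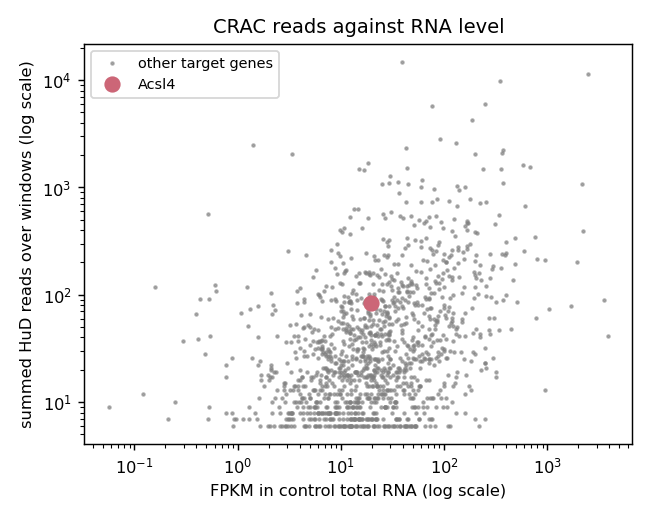
HuD CRAC reads summed over the windows of each gene against its FPKM in control total RNA, both axes on a log scale, with 1 point per target gene. *Acsl4* (red, 83 reads at 19.8 FPKM) lies inside the cloud of other targets.

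The 4 genes without a window were expressed, so absence of windows was set against level. A window was found on 9.87% of the 12953 protein coding genes with RNA-Seq counts. Of the genes within 1.5-fold of the FPKM of *Acsl4*, 14.6% had one, and the share was 20.7% at the level of *Acsl5*, 10.5% at that of *Acsl3*, 8.003% at that of *Acsl6* and 5.17% at that of *Acsl1*. Most genes at each of these levels thus had no window, and 1 member of 5 with a window is not set apart from that background.

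The 3′ UTR of *Acsl4* was the longest and among the richest in U of the family, when each was read up to its most counted 3′ end. It ran for 2684 nt with 35.3% U and matched the 230 listed 7-nt window sequences at 103 places, or 38.4 per kb. These 230 sequences include those of *Acsl4* itself. The 3′ UTR of *Acsl3*, at 552 nt, had 35.9% U and 36.2 matches per kb, and so nearly the same density over a much shorter stretch. *Acsl6* had 342 nt, 26.6% U and 35.1 matches per kb, *Acsl1* 1571 nt, 28.3% U and 28.0 per kb, and *Acsl5* 271 nt, 29.5% U and 25.8 per kb. Over the longest annotated 3′ UTRs of 12489 protein coding genes the median was 28.2% U and 22.9 matches per kb, and over 1247 targets it was 32.1% and 32.5. The pentamer AUUUA, the core of AU-rich elements, occurred 10 times in the *Acsl4* 3′ UTR, 2 times each in those of *Acsl1* and *Acsl3*, and not at all in those of *Acsl5* and *Acsl6*. Read over the longest annotated 3′ UTR, as for all genes, *Acsl6* had 3559 nt with 27.0 matches per kb and 5 copies of AUUUA, *Acsl3* had 1328 nt with 32.4 matches per kb and 5 copies, *Acsl5* had 1364 nt with 23.5 matches per kb and no copy, and *Acsl1* and *Acsl4* were as above. At least 1 copy was present in 71.0% of the longest 3′ UTRs of all genes.

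By FPKM, *Acsl5* was the member with the most RNA and *Acsl1* the one with the least. By 3′ end reads *Acsl4* was above *Acsl5*, and *Acsl1* was again the lowest. In total RNA of control cells *Acsl5* was at 50.8 ± 3.47 FPKM (SD, n = 2), *Acsl4* at 19.8 ± 3.20, *Acsl3* at 10.1 ± 2.25, *Acsl6* at 6.92 ± 0.53 and *Acsl1* at 3.52 ± 0.36. *Acsl5* made up 55.8% and *Acsl4* 21.7% of the family's summed FPKM. Over all 8 RNA-Seq and POL-Seq libraries the FPKM ranges of neighbours in this order did not overlap. *Acsl5* ran from 46.8 to 63.6 FPKM, *Acsl4* from 17.5 to 29.97, *Acsl3* from 8.49 to 14.7, *Acsl6* from 6.35 to 7.50 and *Acsl1* from 3.27 to 4.33. *Acsl5* exceeded 91.4% and *Acsl1* 34.3% of 12923 protein coding genes. FPKM divides by exon length, which was 10483 nt for *Acsl1*, 9914 for *Acsl6*, 5405 for *Acsl4*, 4864 for *Acsl5* and 4357 for *Acsl3*. In CPM (counts scaled to library size, not divided by length), *Acsl6* was above *Acsl3* in control total RNA, at 68.6 against 43.9. Over the 8 libraries the CPM ranges of *Acsl3* (37.0 to 64.2) and *Acsl1* (34.2 to 45.4) overlapped.

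**Figure D3:**
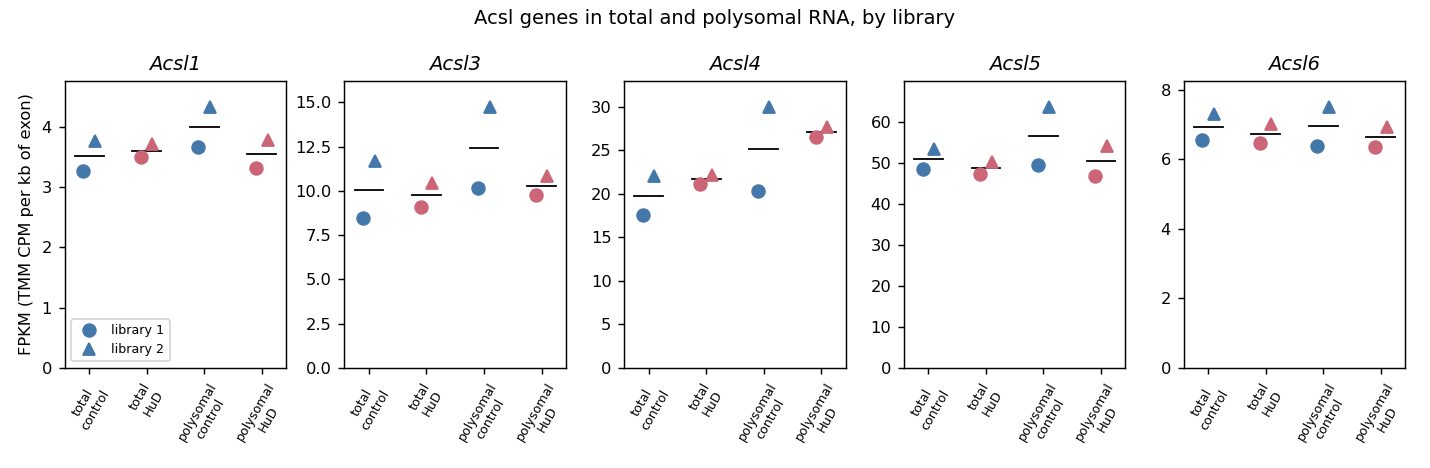
FPKM of each *Acsl* gene in every RNA-Seq and POL-Seq library, with control in blue, HuD in red, library 1 as circles, library 2 as triangles and the group mean as a black line. In each of the 20 pairs the triangle lies above the circle, and the control and HuD groups overlap in both fractions.

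Libraries held 21296012 to 36284728 reads on genes in RNA-Seq and POL-Seq and 10154407 to 12295080 reads at 3′ ends. Of 12 neuronal markers 11 had counts. Without *Elavl4*, which the transgene raises, the other 10 summed to 433 to 458 FPKM in control and 416 to 431 in HuD total RNA, and to 453 to 463 and 461 to 497 in polysomal RNA, with the tubulin gene *Tubb3* at 299.7 to 360.02 FPKM and the motor neuron factor *Isl1* at 8.76 to 12.0, while the motor neuron marker *Mnx1* had no row and the choline acetyltransferase gene *Chat* was at 0.0955 to 0.129. Microglial markers had no counts, and the summed level of the 2 of 5 astrocyte markers with counts was 1.70 to 3.01 FPKM in control and 2.01 to 2.48 in HuD libraries. For 4 of 5 oligodendrocyte markers the sums were 4.55 to 5.37 and 4.47 to 5.28, and for the 1 of 5 fibroblast markers 2.26 to 2.66 and 2.11 to 2.80. The induction was seen in *Elavl4*, at 14.5 and 18.1 FPKM in control and 43.9 and 39.3 in HuD total RNA, which is a log2 difference of 1.35 (adjusted p = 0.0866 in the edgeR fit). Reads at mouse *Elavl4* 3′ ends do not check the induction, since the transgene is a cDNA with the vector's own 3′ end.

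In total RNA no difference between HuD and control cells beyond the spread between libraries was found for any member. Changes were tested over 14906 genes by the quasi-likelihood test in edgeR with Benjamini-Hochberg adjustment, and 0 of 5 members had an adjusted p under 0.05. None had an unadjusted p under 0.05 either, where 2.64% of all genes did, and 0% of genes passed the adjusted threshold. *Acsl4* was at 17.5 and 22.1 FPKM in control and 21.1 and 22.2 in HuD cells, and the groups overlap. Its log2 change was 0.13 (standard error 0.17, 95% interval -0.25 to 0.51, adjusted p = 1.00). The family's other log2 changes were between -0.06 (*Acsl5*) and 0.04 (*Acsl1*). In bulk samples, fewer cells with the RNA and less RNA per cell cannot be told apart.

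In polysomal RNA none was found either, and for *Acsl4* the widest gap lay between the control libraries. Its values were 20.3 and 29.97 FPKM in control and 26.6 and 27.7 in HuD cells, so both HuD values lie between the control values. The log2 change was 0.11 (standard error 0.17, interval -0.27 to 0.49, adjusted p = 0.972). *Acsl3* was at 10.2 and 14.7 FPKM in control and 9.76 and 10.8 in HuD cells, its log2 change being -0.27 (SE 0.19, adjusted p = 0.969), the largest in size of the family. Of the 5 members, 0 passed at an adjusted p under 0.05 (0% of all genes) and 0 at an unadjusted p under 0.05 (4.17% of all genes). With the replicate number as a block, *Acsl1* and *Acsl3* had an unadjusted p under 0.05 (edgeR, lowest adjusted p = 0.519), as did 9.3% of all genes. Without polysomal control library 1 the log2 change of *Acsl4* was -0.14, and without control library 2 it was 0.42.

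Translational efficiency (TE) is the ratio of polysomal to total RNA. For *Acsl4* it was 1.16 and 1.36 in control and 1.26 and 1.25 in HuD cells, taken over same-numbered libraries, and the log2 change was -0.02 (standard error 0.24, interval -0.55 to 0.52, adjusted p = 1.00). A change in TE of up to 1.44-fold upwards or down to 0.681 of the control is inside that interval, so changes of that size are not excluded with 2 libraries a group. *Acsl1* had TE of 1.12 and 1.15 in control and 0.951 and 1.02 in HuD cells. *Acsl3* had 1.20 and 1.26 against 1.08 and 1.04. For these genes both HuD ratios lay under both control ratios, as they did for 19.9% of all genes, and the log2 changes were -0.20 (standard error 0.16) and -0.22 (standard error 0.26). The log2 value was -0.10 for *Acsl5* and -0.03 for *Acsl6*. No member passed at an adjusted p under 0.05 (0% of genes) or at an unadjusted p under 0.05 (0.979% of genes), and DESeq2 called no member in TE, total RNA, polysomal RNA or polysomal against total RNA. For a set of selected HuD targets that includes *Acsl4*, the paper reports a significant rise in TE on HuD overexpression. It ascribes the rise to polysomal occupancy, with little change in total RNA. Why the values given here differ from that report was not tested.

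**Figure D4:**
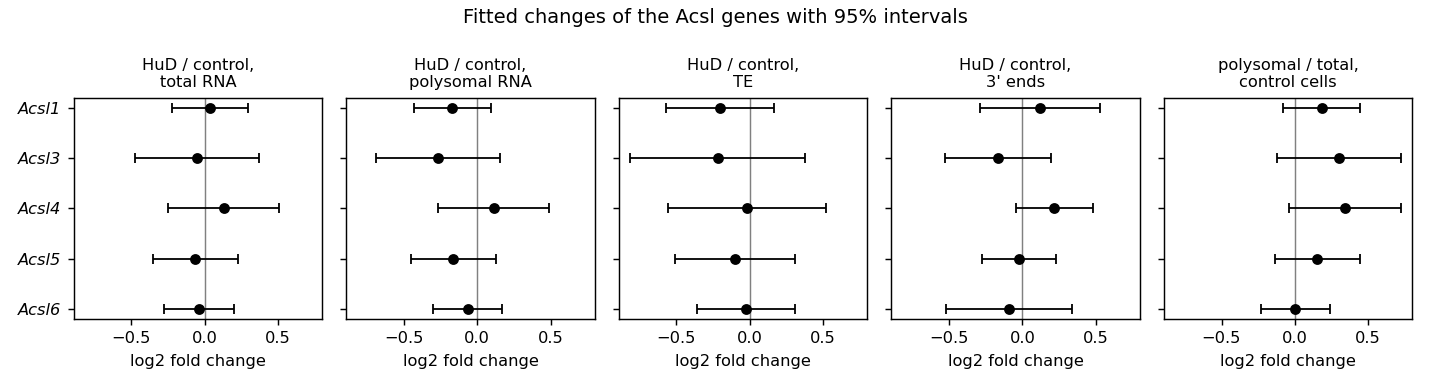
Log2 fold changes of the 5 genes from edgeR with 95% intervals (bars) in 5 comparisons, 4 of HuD against control and 1 of polysomal against total RNA within control cells. Every interval crosses the grey line at 0.

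In control cells alone, polysomal was set against total RNA to see how each mRNA is loaded without the transgene. The log2 difference was 0.34 for *Acsl4* (standard error 0.17, unadjusted p = 0.0728, adjusted p = 0.474), 0.30 for *Acsl3*, 0.18 for *Acsl1*, 0.15 for *Acsl5* and 0.00 for *Acsl6*. None of the 5 passed at an adjusted p under 0.05, where 0.174% of genes did, or at an unadjusted p under 0.05, where 10.7% did. With the replicate number as a block, *Acsl1*, *Acsl3* and *Acsl4* had an unadjusted p under 0.05 (0.0270, 0.0173 and 0.0200, edgeR, lowest adjusted p = 0.191), as did 20.6% of all genes. Polysomal control library 1 decides this count. Without it *Acsl4* was at 0.60 (adjusted p = 0.0154, edgeR) and *Acsl3* at 0.55 (adjusted p = 0.0482), and 14.4% of all genes passed. In that fit polysomal control library 2 stands alone and is assumed to vary like the other groups.

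All 5 members were higher in library 2 than in library 1 in each of the 4 groups, a pattern first noticed in the values. This held in 20 of 20 comparisons of the 2 libraries of a group, whereas 19.9% of all 14906 genes were higher in library 2 in all 4 groups and 16.1% lower in all 4. For *Acsl4* the log2 difference of library 2 over library 1 was 0.33 in control and 0.07 in HuD total RNA, and 0.56 in control and 0.06 in HuD polysomal RNA. For *Acsl3* it was 0.46, 0.20, 0.54 and 0.15 in the same order. The average over groups was 0.16 for *Acsl6*, 0.18 for *Acsl1*, 0.20 for *Acsl5*, 0.26 for *Acsl4* and 0.34 for *Acsl3*, against a median of 0.00 over all genes. What the library number stands for is not given in the labels.

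At 3′ ends, 1 of the 5 members, *Acsl4*, had groups that did not overlap. Its single end, on chromosome X at position 142317993, had 547, 497 and 530 CPM (counts scaled to the size of each library) in control and 677, 594 and 560 in HuD libraries. All 3 HuD values were above all 3 control values, as for 6.11% of the 9621 genes, and for a further 5.79% all 3 were below. The log2 change was 0.22 (standard error 0.12, interval -0.04 to 0.48, adjusted p = 0.898, edgeR), and with the replicate number as a block it was 0.22 (standard error 0.07, unadjusted p = 0.0127, adjusted p = 0.140), where 2.61% of genes passed at an adjusted p under 0.05. Neither fit put it past the threshold. The log2 value was 0.12 for *Acsl1*, -0.17 for *Acsl3*, -0.02 for *Acsl5* and -0.09 for *Acsl6*, all with overlapping groups. No member passed at an adjusted p under 0.05, where 0.0416% of genes did, or at an unadjusted p under 0.05, where 5.86% did, in the fit without the block. DESeq2 also called none of the 5.

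All *Acsl* 3′ ends except the first of *Acsl3* lie behind common polyadenylation signals. The hexamer AAUAAA began 23 nt before the end of *Acsl4*, 31 nt before that of *Acsl1* (chromosome 8, position 46536051) and 20 nt before that of *Acsl5* (chromosome 19, position 55296627). The 3 listed ends of *Acsl6* (chromosome 11, 54361528 to 54361539) lie within 20 nt of each other behind 1 AUUAAA and were counted as 1 end. *Acsl1*, *Acsl4*, *Acsl5* and *Acsl6* thus had 1 end each, and a choice between ends could be tested only for *Acsl3*.

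*Acsl3* used 3 ends on chromosome 1, at 486, 552 and 1328 nt after the stop codon. The middle end, at position 78706967, took 76.5%, 81.0% and 78.0% of the gene's reads in control and 82.5%, 75.6% and 69.1% in HuD cells. The first end, at 78706901, took 16.7% ± 2.38 (SD, n = 3) in control and 20.2% ± 6.47 in HuD cells, and neither AAUAAA nor AUUAAA was found in the 50 nt before it. The last, at 78707743, took 4.85% ± 0.86 and 4.07% ± 0.27. The hexamer AAUAAA began 19 nt before the middle end and 24 nt before the last. The groups overlapped at all 3 ends, and the last end held 20 to 40 reads per library. The log2 changes in usage were 0.16, -0.03 and -0.17, and the gene had an adjusted p = 1.00 (edgeR, Simes combination of its 3 ends). Over 1434 genes with 2 or more ends, 0.488% had an unadjusted p under 0.05 and 0% an adjusted one.

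**Figure D5:**
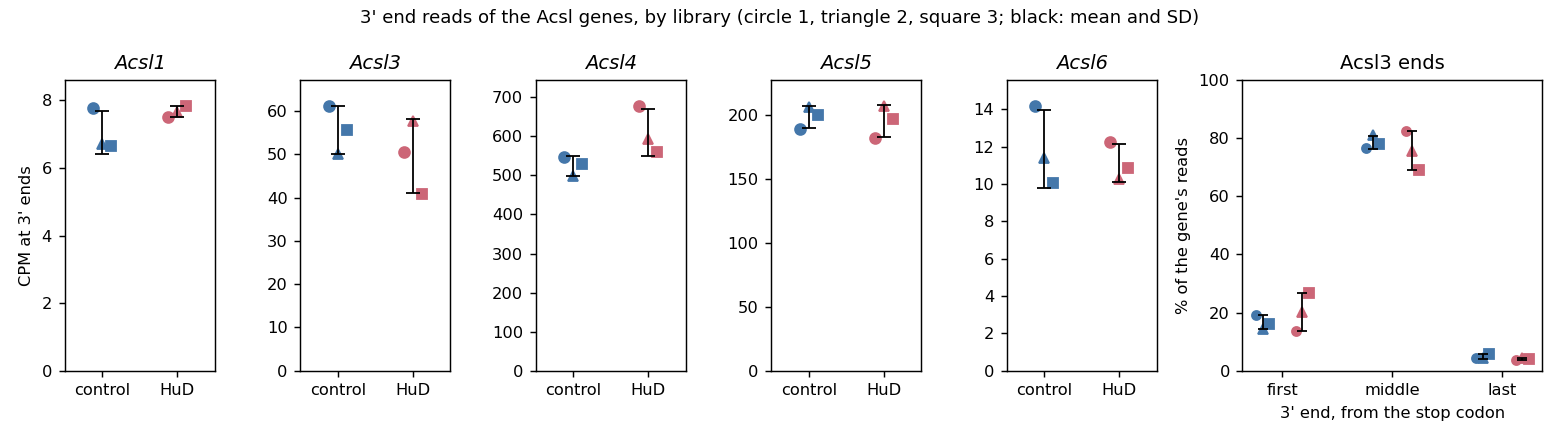
First 5 panels: CPM at 3′ ends of each *Acsl* gene in 3 control (blue) and 3 HuD (red) libraries, with circles, triangles and squares for libraries 1, 2 and 3 and black bars for mean and SD. Last panel: percent of *Acsl3* reads at its 3 ends in the same libraries. The HuD values of *Acsl4* (560 to 677) are above its control values (497 to 547), as for 6.11% of all genes, and the other groups overlap.

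The order of *Acsl4* and *Acsl5* differed between FPKM and 3′ end reads, while the other members kept their places. By 3′ end reads *Acsl4* led with 525 ± 25.03 CPM (SD, n = 3) in control cells, 2.64 times the 198 ± 8.77 of *Acsl5*, whereas by FPKM *Acsl5* exceeded *Acsl4* 2.57 times. Per FPKM of control total RNA, *Acsl4* had 26.5 CPM at its 3′ end, more than 98.5% of the 8810 genes with at least 1 FPKM, whose median was 2.27. *Acsl3* had 5.52, *Acsl5* 3.90, *Acsl1* 2.00 and *Acsl6* 1.72, all between the 10th and 90th percentile of 0.429 and 9.56. The 3′ end assay reads each RNA once, at annotated ends only, and FPKM depends on the summed exons of the annotation.

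Around the family, 5 lists of acyl-CoA genes were read with the same tests: other acyl-CoA synthetases (7 of 19 with counts), thioesterases and acyl-CoA binding proteins (14 of 19), mitochondrial uptake and beta oxidation (14 of 15), acyltransferases of glycerolipids (18 of 22) and ferroptosis with arachidonate handling (12 of 18). Of these 65 genes, 0 passed at an adjusted p under 0.05 in total RNA, polysomal RNA, TE or polysomal against total RNA, and 0 of 54 at 3′ ends. At an unadjusted p under 0.05 there was 1 lower in total RNA (2.64% of all genes passed in either direction), 3 higher and 2 lower in polysomal RNA (4.17%), none in TE (0.979%) or at 3′ ends (5.86%), and 1 higher and 4 lower in polysomal against total RNA of control cells (10.7%). The median log2 change over the 65 was -0.02 in total RNA, 0.04 in polysomal RNA and 0.02 in TE, against 0.00, -0.01 and -0.01 over all genes, and it was 0.05 in polysomal against total RNA and 0.01 at 3′ ends, against 0.01 and 0.00.

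The genes named here had the smallest unadjusted p-values of the lists. *Dbi*, the acyl-CoA binding protein that carries acyl-CoA in the cytosol, was at 159 and 162 CPM in control and 127 and 137 in HuD total RNA, a log2 difference of -0.28 (SE 0.09, edgeR unadjusted p = 0.00941, adjusted p = 1.00). In polysomal RNA its log2 change was -0.25. *Ptgs1*, the cyclooxygenase 1 that oxidises arachidonate, had 46.6 and 48.1 CPM in control and 56.3 and 56.5 in HuD polysomal RNA (log2 0.25, adjusted p = 0.969, edgeR). *Slc7a11*, the cystine carrier that feeds glutathione synthesis, was at 6.66 and 6.93 CPM in control and 9.52 and 8.19 in HuD polysomal RNA (log2 0.39, adjusted p = 0.969, edgeR). *Lpcat3*, which places polyunsaturated acyl chains into phospholipids made with acyl-CoA from ACSL4, was at 49.9 and 56.6 against 45.3 and 45.8 CPM (log2 -0.22, adjusted p = 0.969, edgeR). In polysomal against total RNA of control cells the log2 differences were -0.40 for the fatty acid carrier gene *Slc27a1*, 0.27 for the peroxisomal *Acbd5*, -0.26 for the lysophosphatidate acyltransferase gene *Agpat1* and -0.21 for the neuronal carnitine palmitoyltransferase gene *Cpt1c*, with edgeR adjusted p from 0.382 to 0.465. In TE the smallest p of the lists was that of *Acbd6*, an acyl-CoA binding protein (log2 0.25, unadjusted p = 0.124), and at 3′ ends that of *Acss2*, an acetyl-CoA synthetase (log2 -0.49, unadjusted p = 0.0758).

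HuD windows were found on 7 of the 65 list genes, or 10.8%, close to the 9.87% of all protein coding genes. The cystine transporter subunit *Slc3a2* had 189 reads summed over 2 windows and the antioxidant factor *Nfe2l2* 90 summed over 2. Set per FPKM, *Nfe2l2* had 11.3 reads, *Slc3a2* 2.29 and *Acsl4* 4.19. The largest window held 45 reads in *Nfe2l2* and 97 in *Slc3a2*, so their sums may count the same reads more than once. Their values per FPKM are thus not strictly comparable with that of *Acsl4*. The beta-oxidation dehydrogenase gene *Hadh* had 72 reads, the acyltransferase gene *Agpat5* 29 and the transferrin receptor gene *Tfrc* 25, in 1 window each. *Echs1* and *Acadm*, both of beta oxidation, tied at 24. None of the other acyl-CoA synthetases or thioesterases on the lists had a window.

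Across the 8 RNA-Seq and POL-Seq libraries, the genes whose log2 CPM followed *Acsl4* most closely, among 9701 genes with a mean of at least 10 CPM, were *Thoc2* (Pearson's r = 0.989), *Morc3* (0.988), *Scn9a* (0.984), *Ythdc1* (0.983) and *Dctn4* (0.982). *Ythdc1* and *Dctn4* also had a HuD window, as did 9.87% of all protein coding genes with RNA-Seq counts. The 8 points share the difference between libraries 1 and 2 and that between the fractions, and the values are a description. The nearest of the family was *Acsl3*, with r = 0.731 at place 1789.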

How the data were processed

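For CRAC, the authors removed adaptors and PCR duplicates, aligned reads with TopHat2 2.0.14 to GRCm38.p4, pooled the replicates of each arm and listed windows with coverage and deletion counts, a motif score and a combined p-value, which were used as deposited. The RNA-Seq and POL-Seq table holds read counts per gene that the authors took from STAR 2.5.3a, and the QuantSeq REV table holds read counts starting within 10 nt of known 3′ ends.

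CPM, FPKM and TE were computed here. Ends within 20 nt were merged to the most counted one, since near ends share reads, which left 11338 of 14536. Changes were tested with the quasi-likelihood test of edgeR 4.0.16 (R 4.3.3, TMM scaling, low counts filtered), TE as an interaction over the 8 libraries, and end choice per end with Simes p-values per gene. No replicate number entered these fits. For 3′ ends, the deviations of a control and a HuD library with the same number correlated across genes (r = 0.400 to 0.658 in the 3 pairs), so the block is given for that assay beside the result it bears on. Replicates of a group differed by more than sampling noise (chi-square per degree of freedom 7.91 to 39.6). Alternatives were the block, RLE scaling, no filter, DESeq2 1.42.0, other treatments of near ends and leaving out each library. In simulated counts with known changes the TE test recovered 99.5% of genes changed by a log2 value of 2 and called 0.116% of the others (14851 genes), and the test of end choice, with 1 end raised 4-fold, 100% and 0.730% (1433 genes). Smaller changes, such as those fitted for the members, were not simulated, so these rates do not give the power to detect them. The family was given by name. The gene lists, the tests and the rule for named list genes (every gene with an adjusted p under 0.05, else up to 4 per comparison by smallest p, and up to 6 with most CRAC reads) were chosen with earlier results of these data known. The comparison of library 2 with library 1 and the ratio of 3′ end CPM to FPKM were added after seeing the data.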

Additional observations from a re-analysis of the deposited data

How the results depend on the processing

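No setting other than leaving out a library changed the direction of any member or its side of an adjusted p of 0.05 in total RNA, polysomal RNA, TE, polysomal against total RNA or 3′ end abundance (105 values under the replicate block, RLE scaling, no filter, DESeq2 and ends kept apart). The number of members called stayed at 0 with the replicate block in all 6 comparisons. In RNA-Seq and POL-Seq the 2 libraries of a group share only a number, and deviations of same-numbered libraries correlated at 0.185 to 0.388 across the 6 pairs of groups. With the block the lowest adjusted p of the members was 0.876 in total RNA, 0.519 in polysomal RNA, 0.992 in TE and 0.191 in polysomal against total RNA (edgeR). Over all genes the block moved calls at 3′ ends from 4 to 251, and DESeq2 gave 34.

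Of 190 values with a library left out, 28 changed sign, and the cause was not tested. In total RNA the log2 changes ran from -0.064 to 0.14 for *Acsl1*, -0.26 to 0.20 for *Acsl3*, -0.027 to 0.30 for *Acsl4*, -0.13 to 0.0082 for *Acsl5* and -0.12 to 0.042 for *Acsl6*. In polysomal RNA they ran from -0.52 to 0.024 for *Acsl3*, -0.14 to 0.42 for *Acsl4*, -0.33 to 0.036 for *Acsl5* and -0.18 to 0.059 for *Acsl6*. In TE they ran from -0.47 to 0.070 for *Acsl3*, -0.27 to 0.29 for *Acsl4*, -0.27 to 0.096 for *Acsl5* and -0.14 to 0.095 for *Acsl6*. For polysomal against total RNA the range was -0.048 to 0.32 for *Acsl5* and -0.12 to 0.12 for *Acsl6*, and the number of members called ran from 0 to 2, the 2 being *Acsl3* and *Acsl4* without polysomal control library 1. At 3′ ends the range was -0.067 to 0.025 for *Acsl5* and -0.20 to 0.056 for *Acsl6*, and the usage of the middle end of *Acsl3* ran from -0.072 to 0.0053. *Acsl4* at 3′ ends kept its sign, from 0.14 to 0.28.

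With windows restricted to a combined p under 0.05, 0 of the 4 windows of *Acsl4* remained, and merging overlapping or adjoining windows left 4. With 2 libraries a group, the 95% intervals of TE reach from -0.55 to 0.52 for *Acsl4* and from -0.82 to 0.38 for *Acsl3*.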
